A study of Drosophila melanogaster with 2 samples.

Results

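Of the 3894 reproducible ChIP-seq peaks of CG1620-eGFP in whole adult female Drosophila melanogaster, 362 had their summit on the gene side of the transcription start site (TSS) of a single protein-coding gene. A peak was counted when its summit, the position deposited as the peak's highest point in the pooled data, lay within 500 bp of TSSs of exactly 1 protein-coding gene and at or after that gene's nearest TSS in the direction of transcription. The 362 peaks fell in 352 genes, which is 2.52% of the 13945 annotated protein-coding genes. They made up 9.30% of all reproducible peaks and 21.7% of the 1665 single-gene promoter peaks (95% exact binomial interval 19.8 to 23.8%). The other 1303 single-gene promoter peaks had their summit upstream of the TSS and serve below as the comparison. A further 1218 peaks lay within 500 bp of TSSs of several genes and 1011 lay near no protein-coding TSS.

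The flies carried a stable insertion that expresses CG1620 with GFP at its C-terminus, and chromatin sheared by sonication to 200 to 800 bp was precipitated with an antibody against GFP. All chromatin came from adult females of 1 transgenic line whose age is given as unknown. There was 1 group with 2 biological replicates, numbered 2 and 3, so no genotype, sex or treatment could be compared. Since whole animals were used, binding in different tissues is averaged, and expression of the fusion protein in individual tissues was not measured here. The files hold peaks and no read counts, so the sequencing depth is unknown. The replicate lists each held 30000 candidate peaks, whose weakest signals were 14.2 in replicate 2 and 6.69 in replicate 3. Peak signal, the authors' value for a peak against a control, was not scaled between these lists. How it was computed is not stated in the labels or file headers, so its ratios are given only as ratios of the deposited values.

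At an active promoter, RNA polymerase II assembles around the TSS with the general transcription factors, and in Drosophila it often pauses shortly after initiation. Core promoter elements sit at fixed places: the TATA box upstream of the start, the initiator on it, and further elements after it. Sequence-specific factors can bind on either side, and the first intron of Drosophila genes often holds regulatory elements.

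The sequences below show matches within 50 bp of the summits to 4 of the sequence elements compared further below. A printed stretch need not hold the summit itself. Each is 30 bases on the strand of the gene, read 5′ to 3′ from the release 6 (dm6) genome, with the match in capitals. The first set holds the 4 strongest peaks with the repeat CACACACA, which reads TGTGTGTG on the other strand and was more frequent at downstream summits than at upstream summits.
SREBP, chr3L:19794352-19794381, plus strand: cggtcgcgtaTGTGTGTGTGcagtgcacag
Cat, chr3L:18822873-18822902, plus strand: gcgcaactgcaTGTGTGTGcgtgtgtgtgc
dbo, chr3L:15827137-15827166, plus strand: catccgcgTGTGTGTGTGTGTGgtgtgtgc
lawc, chrX:8409945-8409974, minus strand: atgctctccgcCACACACAcgcggtcaacg

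In SREBP, Cat and dbo the repeat lay in an intron and read as TG on the strand of the gene, whereas in lawc it lay in the 5′ UTR and read as CA. The run in dbo was 14 bases long. The Cat stretch holds another match to the repeat, which is left in lower case. The next set holds TATCGATA, the DNA replication-related element (DRE) bound by the factor DREF, which was less frequent at downstream than at upstream summits; 4 of the 8 downstream peaks with a match are shown.
RpS29, chr3R:9778046-9778075, plus strand: atcgtggaaaaTATCGATActgccaccccc
Nipsnap, chrX:16073505-16073534, minus strand: tggacgcgataTATCGATAcaatcggtcag
eIF3f1, chr3R:4714172-4714201, minus strand: cccacccgcacTATCGATAggcccttttct
Irp-1A, chr3R:22724617-22724646, minus strand: tcatgttcagtTATCGATAatataatgttt

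In RpS29 and Nipsnap the DRE began 15 and 45 bp after the TSS, and in eIF3f1 and Irp-1A it began 8 and 48 bp before it. The initiator core TCAGT marks the start itself, and the set below shows how close some downstream summits lay to it. These are the strongest peaks with TCAGT on the gene strand and its A within 5 bp of the TSS.
Amun, chrX:11715549-11715578, minus strand: cgcgcaaacaagTCAGTaaaattcagcaaa
hdly, chr3R:20914287-20914316, plus strand: agaggaatatcaTCAGTgcaaagtcgaaaa
CG3164, chr2L:129226-129255, minus strand: caattgcttattTCAGTtgcgatcgcggcg
Fas2, chrX:4206075-4206104, minus strand: ctagcggtgcttTCAGTtacgtttcgacgg

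In hdly and Fas2 the pooled summit lay 0 and 3 bp after the TSS, beside the initiator, and in Amun and CG3164 it lay 37 and 47 bp after it. In hdly both replicate summits lay before the TSS, at -26 and -29 bp. The last element, the 7-mer AACCCCC, had been noted in an earlier account of these peaks. It occurred at 3 of the 362 downstream summits, and 2 of them are shown.
hry, chr3L:8676019-8676048, plus strand: gaaatctagagAACCCCCccagacacaata
eIF3f1, chr3R:4714187-4714216, minus strand: caaaagccatcAACCCCCacccgcactatc

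In hry, which encodes the repressor hairy, the 7-mer began 75 bp after the TSS. In eIF3f1, a subunit of translation initiation factor eIF3, it began 23 bp before the TSS, next to the DRE shown above. The third match was in Fbl6.

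Downstream summits gathered close to the start. Their median distance from the TSS was 57 bp, with quartiles of 23 and 137 bp. Of the 362 summits, 167 lay 0 to 49 bp after the TSS, 128 lay 50 to 199 bp after it and 67 lay 200 bp or more after it. The TSS was inside the peak for 292 of them, which included all 167 of the first band, 125 of the second and none of the third. This count follows from the distance, since the peaks were at most 400 bp wide and began at most 200 bp before their summit. Another TSS of the same gene lay after the summit within the window in 78 cases, so that these summits lay between alternative starts.

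**Figure D1:**
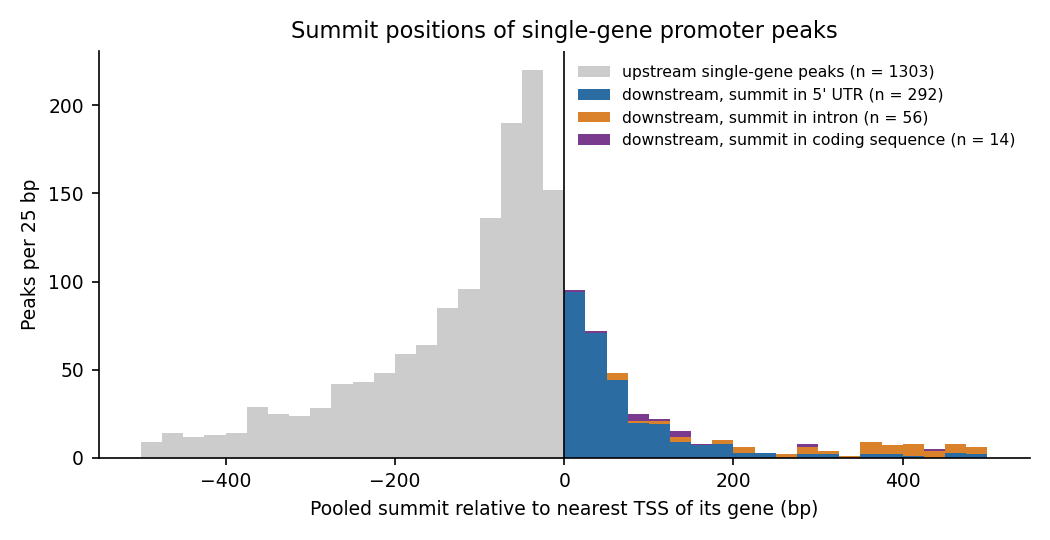
Histogram of the distance from the pooled summit to the nearest TSS of its gene in bp, for 1303 upstream peaks (grey) and 362 downstream peaks coloured by the annotated feature at the summit. The count steps down at the TSS, and intron summits (orange) appear mainly beyond 200 bp, where 44 of 67 lay in an intron.

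Many summits lay close to the line between the sides. Summits of 6 downstream peaks lay on the TSS itself and 41 lay within 10 bp of it, against 59 upstream summits within 10 bp. Just inside were RpL37A, hdly and SNF4Agamma, all at 0 bp, with pooled signals of 238.7, 148.1 and 104.5. Just outside, at 1 bp before the TSS, were Mnn1, Chc and Rad23 with 165.3, 132.7 and 86.6. At the other end D2hgdh, CanB2 and CG12535 lay inside at 497, 484 and 479 bp with signals of 140.2, 72.2 and 88.5. Syp, tay and CG31523 lay outside at 502, 510 and 511 bp with 91.3, 104.7 and 139.8.

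The feature under the summit changed with distance. The summit lay in a 5′ UTR in 292 peaks (80.7%, interval 76.2 to 84.6%), in an intron in 56 (15.5%) and in coding sequence in 14 (3.87%). Within 50 bp of the TSS 98.8% were in a 5′ UTR and none in an intron, while from 200 bp on 29.9% were in a 5′ UTR and 65.7% in an intron. These shares follow in part from the rule, since a base after a TSS is within a transcript. The 56 intron summits had a median distance of 364 bp from the TSS and lay a median of 154 bp past the end of the first exon.

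The strongest downstream peak was in the 5′ UTR of GstE13, which encodes a glutathione S-transferase, an enzyme class that conjugates glutathione to toxic compounds. This peak, at chr2R:9122039-9122370, had a signal of 888.1 in the pooled list, 601.6 in replicate 2 and 283.2 in replicate 3. Its summit lay 85 bp after the TSS in the pooled data, 92 bp in replicate 2 and 71 bp in replicate 3, so the pooled and both replicate lists placed it in the transcribed region. Next came 3 genes known by CG numbers. CG9399 had 614.8 pooled, 432.8 in replicate 2 and 183.8 in replicate 3. CG10413 had 568.8, 413.9 and 154.1 in the same order, and CG4497 had 496.0, 324.3 and 173.2. All 3 had their summits in the 5′ UTR, 40, 108 and 31 bp after the TSS.

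The fifth, ph-p, encodes the Polycomb group protein polyhomeotic proximal, a subunit of Polycomb repressive complex 1. Its peak at chrX:2137734-2138062 had a signal of 474.9 pooled, 337.1 in replicate 2 and 138.4 in replicate 3. The summit lay far into the 5′ UTR, 463 bp after the TSS in the pooled data and 460 and 502 bp in the replicates. Adk3, an adenylate kinase gene, had 465.7 pooled, 382.3 in replicate 2 and 62.0 in replicate 3. Replicate 3 thus ranked it below its neighbours in the pooled order. Further down, RpS29 (331.1, 239.4 and 89.01), RpL26 (315.3, 199.6 and 113.8) and RpL37A (238.7, 163.6 and 70.2) encode ribosomal proteins. eIF4A, the RNA helicase of translation initiation, had 250.2 pooled, 199.0 in replicate 2 and 49.9 in replicate 3. ttv, which encodes a heparan sulfate polymerase needed for Hedgehog movement, had 233.0, 163.0 and 73.3. Klp10A, a kinesin that shortens microtubules, had 228.9, 177.1 and 58.7.

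**Figure D2:**
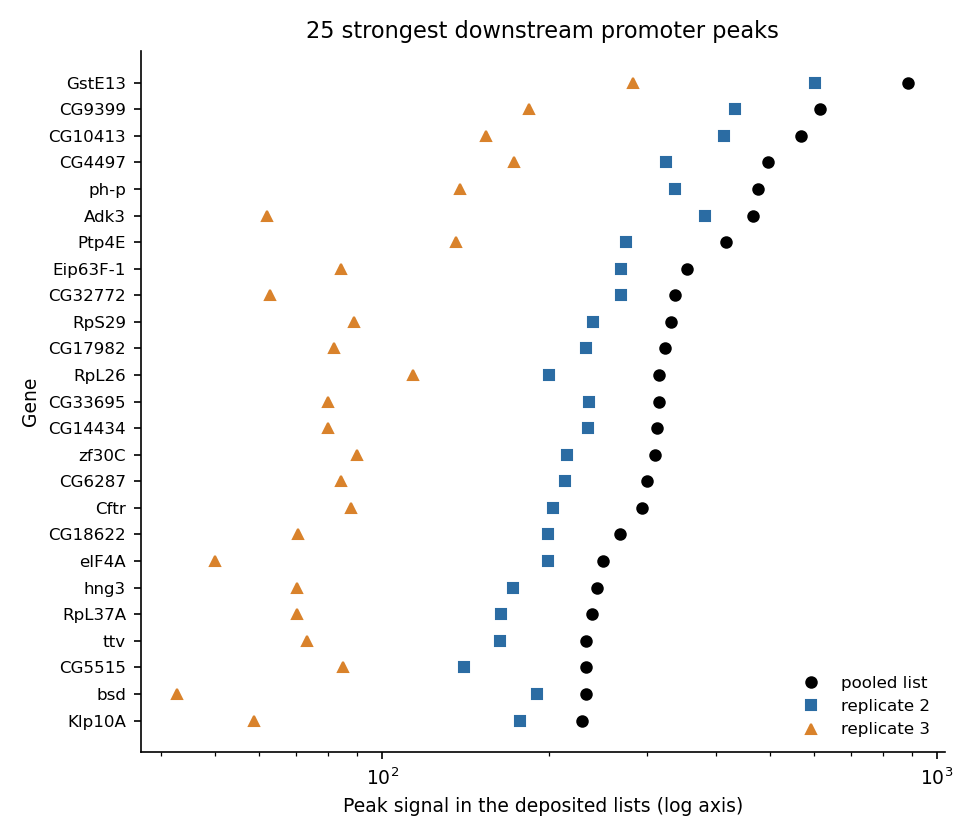
Signal of the 25 strongest downstream peaks in the pooled list (black), replicate 2 (blue) and replicate 3 (orange), on a log axis in the lists' own unscaled units. All 25 have a candidate in both replicates, from GstE13 at 888.1 to Klp10A at 228.9 in the pooled list, and replicate 3 is the lowest value of each.

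Intron summits were among the strong peaks. Ptp4E, a receptor tyrosine phosphatase gene, had 415.7 pooled, 274.8 in replicate 2 and 136.1 in replicate 3 at chrX:4939881-4940088. Its summit lay 406 bp after the TSS and at 400 and 410 bp in the replicates. Eip63F-1, an ecdysone-induced gene for a calcium-binding protein, had 354.5, 269.2 and 84.3, with summits at 471, 478 and 466 bp. The replicates placed these distant summits within 12 bp of each other. Cftr, the fly counterpart of the human chloride channel gene, had 293.6, 203.3 and 87.8 at 195 bp. sqh, the regulatory light chain of non-muscle myosin II, had 204.4, 157.8 and 44.3 at 148 bp. An intron summit was also seen in fru, a transcription factor of sex-specific behaviour, with 190.8 pooled, 153.7 in replicate 2 and 32.0 in replicate 3 at 375 bp. In Sxl, the switch gene of female development, the intron summit at 401 bp had a weaker signal of 78.5, with 57.7 and 17.3 in the replicates.

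The 14 summits in coding sequence ranged from 145.7 in Cp36 to 70.3 in CG5810. Cp36, a chorion protein gene, had 111.2 in replicate 2 and 29.3 in replicate 3, with the summit 83 bp after the TSS. Vm34Ca, which encodes a vitelline membrane protein, had 81.3 pooled, 56.5 and 23.3, with the summit at 97 bp. Both are eggshell genes expressed in ovarian follicle cells. Hsp26, a small heat shock gene, had 78.9 pooled and 22.5 in replicate 3, and was the sole downstream peak with no overlapping candidate in replicate 2. Its summit lay 290 bp after the TSS. Other summits in coding sequence lay in Tpi (77.2, 47.8 and 22.9), the triose phosphate isomerase gene, and in vig2 (138.0, 94.6 and 42.6), where it was 1 bp after the TSS.

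In all, 10 genes held 2 downstream peaks each, beside different TSSs or at different distances from 1 TSS. In cnc, the fly counterpart of the oxidative stress factor Nrf2, an intron summit 363 bp after a TSS had 190.2 pooled, 139.2 in replicate 2 and 48.6 in replicate 3. A summit 2 bp after another start had 80.9 pooled and 83.8 in replicate 2 and no candidate in replicate 3. In alphaTub84B, an alpha-tubulin gene with 1 TSS position, the summits lay at 84 and 357 bp with pooled signals of 132.1 and 89.7. The summits of Eip75B, an ecdysone-induced nuclear receptor gene with 7 TSS positions, lay 81 and 192 bp after different TSSs, with 93.0 and 87.3. The others were Amun, IntS6, Trpm, ctp, egh, lawc and wun. Neighbouring peaks are not always separate measurements. The pair in IntS6 overlapped the same candidate of replicate 2, and the pair in wun the same candidate of replicate 3. In nej and Klp10A an upstream peak had the same replicate 3 value as the downstream peak. Of all downstream peaks, 20 (5.52%, interval 3.41 to 8.40%) overlapped another reproducible peak, against 10.9% of all reproducible peaks.

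Downstream peaks were weaker than upstream ones. Their median pooled signal was 98.6 (quartiles 79.8 and 136) against 116 (87.4 and 176), a ratio of medians of 0.848. The ratio was 0.911 in replicate 2, with medians of 80.4 and 88.3, and 0.677 in replicate 3, with medians of 22.0 and 32.4. The strongest 50% of all reproducible peaks held 129 downstream peaks, which is 35.6% of the 362 downstream peaks, while 50.7% of upstream peaks were among them. This difference of -15.0 percentage points had a 95% Newcombe interval of -20.5 to -9.28. Such intervals treat peaks as independent and cover counting error over peaks, not the spread between flies. Across the 3 distance bands the median signals of downstream peaks lay close together, at 98.7, 98.1 and 97.8. Among summits within 50 bp of the TSS on either side, 32.9% of downstream and 48.4% of upstream peaks were among the strongest 50% of the list, a difference of -15.5 points (-23.8 to -6.47).

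The replicates differed more over downstream than over upstream peaks. An overlapping candidate existed in both replicates for 331 of 362 (91.4%, interval 88.1 to 94.1%), against 96.2% of all reproducible peaks and 97.0% of upstream peaks, a difference from the latter of -5.57 points (-9.0 to -2.88). Of the 31 that lacked one, 30 lacked it in replicate 3. The strongest of these was the intron peak of Cat, the catalase gene, with 165.8 pooled and 152.5 in replicate 2. Gadd45, a growth arrest and stress gene, had 144.4 pooled and 138.1 in replicate 2, and emc, an inhibitor of basic helix-loop-helix factors, had 119.3 and 109.2. The shortfall was also seen among peaks of like strength. In the weakest 25% of the list 84.6% of downstream and 91.1% of upstream peaks had both candidates, a difference of -6.52 points (-14.0 to -0.265), and in the strongest 25% all 44 and all 329 did.

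Where both had a candidate, the median ratio of replicate 2 to replicate 3 signal was 3.47 over downstream peaks (quartiles 2.61 and 4.92) and 2.81 over upstream peaks (2.23 and 3.68). The lists are not scaled to each other, so 1 value of this ratio has no meaning by itself, and the comparison is between sets of peaks. In 4 equal bins of the list from the strongest to the weakest the downstream medians were 2.85, 3.41, 3.94 and 3.45, and the upstream medians were 2.75, 2.77, 2.92 and 2.90. Downstream peaks thus had the higher median ratio in each bin, and the gap between the medians was smallest in the strongest. G and C made up a median of 46.5% of the bases around downstream summits and 40.6% around upstream summits, and 47.5% against 46.5% for summits within 50 bp of the TSS. Its part in the replicate difference was not tested.

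**Figure D3:**
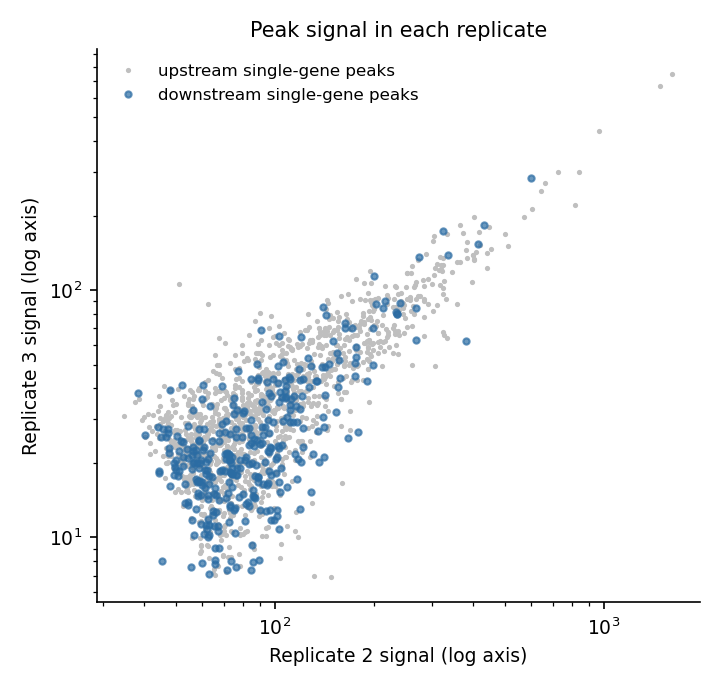
Signal of each peak in replicate 2 (horizontal) and replicate 3 (vertical), both on log axes in unscaled units, for downstream (blue) and upstream (grey) single-gene peaks with a candidate in both. Downstream peaks lie within the upstream cloud but towards its lower edge, with a median ratio of 3.47 against 2.81.

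The side of the TSS was shared by both replicates for most downstream peaks. Of the 331 with both candidates, 258 (77.9%, interval 73.1 to 82.3%) had both replicate summits at or after the TSS, against 89.9% of all single-gene promoter peaks whose replicate summits both lay on the side of the pooled one. The share was 93.0% among upstream peaks, a difference of -15.1 points (-20.0 to -10.7). The pooled summit was computed from both replicates, so this is not an independent check of the side. The share was 60.1% within 50 bp of the TSS, 90.1% at 50 to 199 bp and 57 of 57 from 200 bp on. A matched candidate had to overlap its peak, which limits how far its summit can lie from the pooled one. The replicate summits of downstream peaks lay at most 227 bp apart, so the full share from 200 bp on follows largely from the matching. The replicate 3 summit lay before the TSS in 61 peaks and the replicate 2 summit in 17, both in 5. Among these were Klp10A, with summits at 0 bp in replicate 2 and -128 bp in replicate 3, and ttv, with 13 and -31 bp. In CG11583 both replicate summits lay upstream, at -10 and -15 bp, although the pooled summit was at 12 bp. The same held for hdly, at -26 and -29 bp with the pooled summit at 0 bp. The median distance between the replicate summits was 30 bp for downstream and 26 bp for upstream peaks. Limited to summits within 50 bp of the TSS on either side, the shares were 60.1% downstream and 79.0% upstream, a difference of -18.9 points (-27.7 to -10.2). This band did not match the distances fully, since 41 of 167 downstream and 59 of 372 upstream summits lay within 10 bp.

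**Figure D4:**
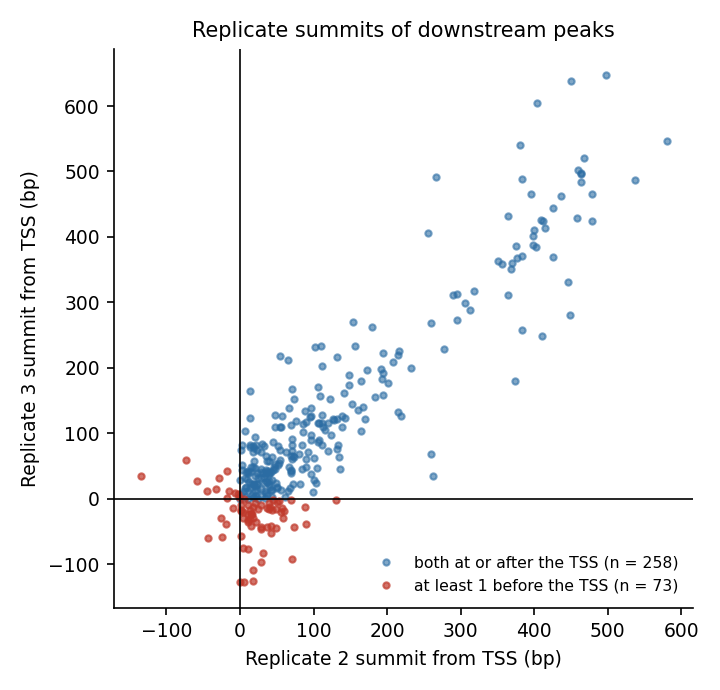
Position of the summit relative to the TSS in replicate 2 (horizontal) and replicate 3 (vertical), in bp, for the 331 downstream peaks with a candidate in both replicates. In red are the 73 with at least 1 replicate summit before the TSS, which crowd around 0, while the summits beyond 200 bp all stay on the downstream side. The overlap required of a matched candidate limits how far its summit can lie from the pooled one.

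Sequence elements differed between the sides. In all, 16 short motifs were searched on both strands in the 50 bp either side of each summit, and the intervals below are not adjusted for this number. The core CGATA, bound by the insulator protein BEAF-32 and contained in the DRE, was found at 66 of 362 downstream summits (18.2%), against 25.9% of all reproducible peaks and 31.4% of upstream peaks. The difference from upstream was -13.2 points (-17.6 to -8.20). At the same distances from all 19252 protein-coding TSS positions, 16.5% of windows held it for the downstream and 20.3% for the upstream summits. The downstream share was thus close to that of promoters at large and the upstream share was above it. The DRE was found at 8 downstream summits (2.21%), against 4.6% of all reproducible peaks and 5.99% of upstream peaks, a difference of -3.78 points (-5.57 to -1.39). With 25 bp either side of the summit it was -0.998 points (-2.26 to 0.943). All promoters held it in 1.52% and 3.08% of windows at these distances. The DRE peaks apart from RpS29 had pooled signals of 71.9 to 101. Of the 8 summits, 7 lay within 50 bp of the TSS.

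These differences were also present close to the start. Among summits within 50 bp on either side, CGATA was found at 23.4% of downstream and 46.5% of upstream summits (difference -23.2 points, -30.8 to -14.6), and the DRE at 4.19% and 11.8% (-7.64, -11.9 to -2.53). Ohler motif 7, a core promoter element searched as CATCNCTA or CAGCNCTA, was found at 5.88% of all reproducible peaks. Close to the start it was found at 6.59% and 13.4% (-6.85, -11.7 to -1.13), while over all distances the interval of its difference included 0.

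The repeat CACACACA was found at 17 downstream summits (4.70%), against 1.57% of all reproducible peaks and 1.23% of upstream peaks, a difference of 3.47 points (1.57 to 6.20). At the same distances all promoters held it in 2.23% and 2.03% of windows. With the summits of replicate 3 alone, the difference was 1.21 points and its interval of -0.101 to 3.48 included 0. The repeat lay mostly at the distant summits, in 1 of 167 within 50 bp, 10 of 128 (7.81%) at 50 to 199 bp and 6 of 67 (8.96%) from 200 bp on. Close to the start the difference was -0.476 points. Of 26 matches, counting each position of a longer run, 21 read as TG on the gene strand. None lay before the TSS, which follows largely from the distances. The window of a summit 50 bp or more after the TSS holds no base before it. Beside those printed above, matches lay among others in zip, the heavy chain of non-muscle myosin II, in chic, the actin-binding protein profilin, and in pum, a translational repressor.

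GAGAG, bound by the GAGA factor, was found at 16.02% of downstream summits, against 11.5% of all reproducible peaks and 12.1% of upstream peaks. The interval of the difference of 3.90 points just included 0 (-0.00767 to 8.35), and close to the start the difference was 6.34 points (0.194 to 13.4). It was 2.41 points (-1.38 to 6.72) with the summits of replicate 2 alone and 1.02 points (-2.81 to 5.52) with those of replicate 3 alone. The longer run GAGAGAGA, which contains GAGAG, was found at 0.276% of downstream summits, against 0.95% of all reproducible peaks and 1.46% of upstream ones (-1.18, -2.02 to 0.193). TATAAA was found at 8.84% of downstream summits, against 14.9% of all reproducible peaks and 13.7% of upstream ones (-4.82, -8.01 to -1.02). The TATA box has its place upstream of the start, and at the same distances all promoters held TATAAA in 10.7% and 17.3% of windows. Close to the start the difference was 0.917 points. GCCAT, the core bound by the Polycomb recruiter Pho, was found at 14.1%, against 17.4% and 18.9% (-4.79, -8.69 to -0.338), and with the summits of replicate 3 alone the difference was -3.45 points (-7.67 to 1.38). Over all promoters 17.3% of windows held it at the downstream and 16.4% at the upstream distances. The initiator core was found at 22.1%, against 17.8% and 18.3%, and AACCCCC at 0.829%, against 0.77% and 0.614%, with intervals that included 0. All promoters held the initiator core in 23.1% of windows at the downstream and 20.4% at the upstream distances. A match describes letters in a window and does not show that a factor is bound there.

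**Figure D5:**
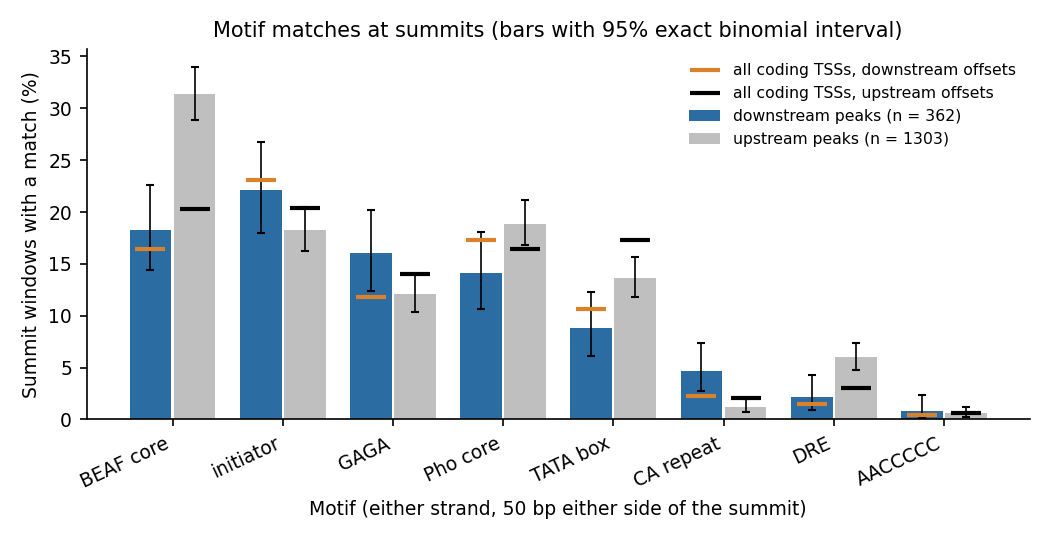
Percent of summit windows with a match to each of 8 motifs, for downstream (blue) and upstream (grey) peaks, with 95% exact binomial intervals, and the share over all protein-coding TSSs at the same distances (orange and black marks). CGATA and the DRE are lower and the CA repeat is higher at downstream summits, at 18.2, 2.21 and 4.70% against 31.4, 5.99 and 1.23%.

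The structure of the genes also differed. In 197 of 362 cases (54.4%) an intron separated the TSS from the start codon, against 48.9% of all single-gene promoter peaks and 47.4% of upstream ones, a difference of 6.99 points (1.17 to 12.7). More than 1 TSS position was annotated for the gene in 65.5%, against 55.6% and 52.8% (12.7 points, 6.95 to 18.1). More starts give a summit more chances to lie after one, so the second measure is linked to the rule. In genes with 1 TSS position the intron difference was 2.62 points and its interval of -5.45 to 11.7 included 0. With the summits of replicate 3 alone it was 5.92 points (-0.175 to 11.9). Among summits within 50 bp of the TSS on either side the intron difference was 10.2 points (1.08 to 19.1). There the difference in genes with more than 1 TSS position was 9.90 points (0.780 to 18.7). The gene held another reproducible peak in 43.1% of downstream cases, against 40.5% of all single-gene peaks and 39.8% of upstream ones, a difference from the latter of 3.26 points (-2.41 to 9.04). A non-coding TSS lay within the window in 28 cases (7.73%), against 6.97% of all single-gene and 6.75% of upstream peaks, a difference from the latter of 0.981 points (-1.79 to 4.43). The X chromosome held 78 downstream peaks (21.5%) and 23.0% of upstream peaks, a difference of -1.48 points (-6.06 to 3.55). These 3 intervals included 0.

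The genes were read against 26 lists of 1350 genes, of which 72 (5.33%) held a downstream peak, against 2.52% of all protein-coding genes. A gene without a promoter peak can hold no downstream one, so the number of genes with any promoter peak is given too. Over all protein-coding genes 352 of 3662 such genes (9.61%) held a downstream peak, and 1192 held an upstream single-gene peak. Any promoter peak includes peaks near TSSs of several genes, which the rule leaves out. Shares of such genes therefore also depend on how often the promoters of a list are shared. These counts are descriptions, with no test. Of 86 cytoplasmic ribosomal protein genes 10 held a downstream peak, which is 13.5% of the 74 with some promoter peak. An upstream single-gene peak was held by 31 of the 86. RpS29, RpL26 and RpL37A were given above. RpL12 had 193.5 pooled, 146.1 in replicate 2 and 50.04 in replicate 3, and the weakest, RpL15, had 77.1, 58.9 and 24.8. Of the 10 summits, 9 lay in the 5′ UTR within 34 bp of the TSS, and the exception was RpL26 in an intron at 73 bp. None of 73 mitochondrial ribosomal protein genes held one (upper exact limit 4.93%). Of these genes 40 had some promoter peak, but only 4 held an upstream single-gene peak, so few could have held a downstream one under the rule. Of 54 translation factor genes, 27 of them with some promoter peak, 3 held a downstream one, eIF4A, eIF3f1 and eIF4G1.

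Of 31 genes of lipid storage and synthesis 8 held a downstream peak, which is 42.1% of the 19 with some promoter peak. Lsd-2, a perilipin that coats lipid droplets, had 195.9 pooled, 166.7 in replicate 2 and 25.3 in replicate 3, with the summit 52 bp after the TSS. SREBP, the transcription factor that activates fatty acid synthesis genes, had an intron summit at 402 bp with 176.5, 126.2 and 53.4. FASN1, a fatty acid synthase, had 157.1, 114.0 and 37.2 at 16 bp. Pect and eas, enzymes of phosphatidylethanolamine synthesis, had 99.8 and 84.1 pooled, and the acyltransferase genes Gpat4 and Agpat3 had 98.6 and 71.3. AcCoAS, which makes acetyl-CoA from acetate, had 81.6. AcCoAS and Agpat3 had no candidate in replicate 3.

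Of 35 heat shock and stress genes 6 held one, which is 33.3% of the 18 with some promoter peak. These were cnc, Cat, GstD1, GstS1, DnaJ-1 and Hsp26. GstD1 had 156.5 pooled, 112.0 in replicate 2 and 36.3 in replicate 3, with the summit at 36 bp. Over the glutathione S-transferase family as a whole, which was looked at after its values were seen, 5 of 35 genes held a downstream peak and 9 held some promoter peak: GstE13, GstE12 with 164.1, GstD1, GstS1 with 126.5 and GstE3 with 72.5. Of 28 genes of sugar metabolism 5 held one, which is 26.3% of the 19 with some promoter peak, among them Pfrx, which makes and breaks down fructose 2,6-bisphosphate, with an intron summit at 365 bp and 111.2 pooled.

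Of 59 chromatin and insulator genes 7 held one, which is 18.4% of the 38 with some promoter peak. ph-p was described above. pita, a zinc finger insulator protein, had 199.0 pooled, 156.1 in replicate 2 and 40.4 in replicate 3 at 167 bp. Trl, which encodes the GAGA factor, had 144.0, 113.2 and 29.4 at 132 bp. nej, the histone acetyltransferase CBP, had an intron summit at 453 bp with 128.0, 91.1 and 69.3. A stronger upstream peak of nej, at -335 bp with 219.7 pooled, had the same replicate 3 value. The value of 69.3 may therefore not be a separate measurement of the downstream peak. esc, a subunit of Polycomb repressive complex 2, had 103.3, and egg, a histone H3 lysine methyltransferase, had 80.7. Of 58 cytoskeleton and adhesion genes 8 held one, which is 21.6% of the 37 with some promoter peak. The strongest was sqh, and betaTub56D, a beta-tubulin gene, had 175.7 pooled, 127.2 in replicate 2 and 40.5 in replicate 3.

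Of 109 genes for sequence-specific transcription factors 6 held one, namely fru, cnc, SREBP, Eip75B, lola and Dp, which is 16.2% of the 37 with some promoter peak. Of 45 genes of insulin, TOR and growth kinase signalling 4 did, and 24 had some promoter peak. In some lists the share was near the 2.52% of all protein-coding genes. Of 34 proteasome subunit genes 1 held one (2.94%), and 18 had some promoter peak. Of 89 oxidative phosphorylation genes 3 held one (3.37%), and 30 had some promoter peak. Eip75B was the 1 of 30 ecdysone response genes that held one (3.33%, or 16.7% of the 6 that had some promoter peak). Egfr, with 95.5 at 50 bp, was the 1 of 40 of Ras and Egfr signalling (2.5%), where 16 did, and Sxl the 1 of 42 splicing genes (2.38%), where 20 did. None was held among 49 genes of Rab, Arf and Ran family GTPases, of which 28 had a promoter peak and 9 an upstream single-gene one. There was none among 45 of Notch, Wnt, Hedgehog and BMP signalling (14 and 10) or among 27 muscle genes (4 and 2). None of 179 chemosensory receptor genes (upper limit 2.04%) and none of 98 cuticle genes held one, and in these lists 2 genes and 1 gene had any promoter peak. The other lists held 1 to 3 such genes each, of 4 to 22 with some promoter peak.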

How the data were processed

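Per the labels, chromatin of adult female flies expressing CG1620-eGFP was precipitated with an anti-GFP antibody in 2 biological replicates, numbered 2 and 3, which formed 1 group. The authors deposited peak lists with a signal value per peak, made per replicate and on pooled replicates against a control, and a list of 3894 peaks thresholded by IDR, a measure of reproducibility between replicates. Peak starts, ends and summit offsets, the other deposited columns used, are positions in bp and not measurements of signal. The caller was not given in the sources used here.

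Python 3.11.15, numpy 2.4.6, pandas 2.3.3, scipy 1.17.1 and matplotlib 3.10.9 were used. TSSs were the 5′ ends of transcripts of protein-coding genes in Ensembl release 115, and sequences came from the RefSeq release 6 assembly, which is dm6, in which 99.8% of 30593 start codons read ATG. Coordinates are 1-based. A replicate candidate matched a peak when they overlapped by at least 50% of either, and the strongest such candidate was used. Shares have exact binomial (Clopper-Pearson) and differences Newcombe intervals at 95%, for counting error only. Classification, motif search and intervals were tested on simulated data. Genes were named as the 25 strongest, the 10 strongest intron summits, the 5 strongest in coding sequence, the 10 strongest with a replicate summit upstream or no candidate, those nearest the limits, genes with 2 peaks, and up to 4 per list. Others named, such as further genes of the lists and of the Gst family, were chosen after their values were seen. The members, motifs, lists and tests were chosen with earlier results of these data known, and the distance bands, bins of the list, comparisons within 50 bp of the TSS and genes with 1 TSS position after values were seen. Lists on another build were not used here.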

Additional observations from a re-analysis of the deposited data

How the results depend on the processing

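The share of downstream summits among single-gene promoter peaks was 26.8% with a window of 1000 bp, 27.9% by the most upstream TSS, 13.02% from 50 bp downstream and 16.4% in the stronger 50% of the list; RefSeq gene models gave the same 362 peaks. Both replicate summits lay at least 25 bp downstream in 55.6%. Candidates in both replicates existed for 94.7% with an overlap of 1 bp and for 55.0% (199 peaks, against 74.3% of upstream peaks) among the 3894 strongest of each replicate. The signal ratio was 0.677 to 0.911 by single replicates. From 50 bp downstream 65.1% of summits lay in a 5′ UTR. Of 16 motifs, 2 had an interval without 0 at 25 bp either side of the summit and 8 at 100 bp, against 5. The intron difference was 6.42 points from 50 bp downstream, 3.77 in the stronger 50% and 2.62 in genes with 1 TSS position, all with intervals including 0, and 5.92 to 6.69 by single replicates. Genes of the lists numbered 29 in the stronger 50%. Differences that changed sign were those of the X share (1.78 points in the stronger 50%), AACCCCC (-0.307 at 25 bp, -0.173 to 0.075 by single replicates), the initiator (-2.88 from 50 bp downstream), TATAAA (0.917) and CACACACA (-0.476), both close to the TSS. The DRE, TATAAA and GCCAT intervals included 0 at 25 bp (-0.998, -2.79 and -2.14 points). The cause was not tested. Of 68 alternative values of differences, 6 changed sign, and 48 kept their sign and whether their interval included 0. The 48 hold differences whose main interval already included 0, such as GAGAG, the initiator, AACCCCC and the X share. Another 12 kept the sign with an interval that came to include 0, and 2 with one that came to exclude it. The motif differences among the 68 are those of 8 of the 16 motifs. Of 30 alternative shares, ratios and counts, 18 stayed near the main value. The alternatives close to the TSS and in genes with 1 TSS position were added after seeing the data. No paired analysis was possible because both replicates belong to 1 group. Without read counts, signal values carry no error of their own.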
